A study of Mus musculus with 26 samples.

Results

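Germ cell specification genes were examined as loci of open chromatin in mouse pluripotent cells. The set held 5 of 21883 protein-coding genes, namely Prdm1, Prdm14, Tfap2c, Nanos3 and Dnd1, chosen by name for their known role. Earlier results of these data were known when the set was chosen. Each locus was the gene's GRCm38 span with 50 kb on each side. The 26 peak lists together held 451563 peaks in 75600 merged regions, of which 334 peaks and 41 regions fell in the 5 loci.

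Accessibility was assayed with ATAC-seq on 50000 cells per library, an assay that lets the Tn5 transposase cut open DNA and tag it for sequencing. FS cells, labelled as formative stem cells, were grown in A3XR medium as FS1 (passage 21) and FS2 (passage 29). Epiblast stem cells (EpiSC) were grown in AF medium as EpiSC_AF (passage 22) or in AFX medium as EpiSC_AFX1 (passage 14) and EpiSC_AFX2 (passage 16). Embryonic stem (ES) cells were grown in 2iL (passage 16), and these 6 groups of 3 libraries made up the first set. The Rd2 set held 2 libraries of Rd2 GFP ES cells (Rd2_ES, passage 33, 2iL), 2 of Rd2 EpiSC in AFX (Rd2_AFX, passage 16) and 4 of epiblast-like cells (Rd2_EpiLC). The latter were induced from ES cells over 2 days in AF with KSR, and a GFP-low fraction was sorted. The 6 FS libraries represent FS1 and FS2 with 3 libraries each, and the labels do not say whether libraries came from separate cultures, so p-values measure the spread between these libraries only. FS cells and EpiLC are known as cells that can respond to germ cell inducing signals, whereas EpiSC respond poorly, which gives the question of whether these loci are open before germ cell fate is induced.

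In the mouse, BMP and WNT signals direct a few epiblast cells to become primordial germ cells. Prdm1 (BLIMP1, a repressor of the somatic programme), Prdm14 (a regulator of pluripotency genes and epigenetic reprogramming) and Tfap2c (AP-2γ, a transcription factor acting downstream of Prdm1) form the core transcription network of this step. Nanos3 and Dnd1 encode RNA-binding proteins needed for the survival of the germ cells once formed.

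RefSeq promoter entries on GRCm38.p6 were matched for 2 members, Prdm1 and Nanos3, and both are shown so that the peaks can be set against them. Each sequence is the 250 bases before the annotated start on the minus strand, chr10:44458749-44458998 for Prdm1 and chr8:84176553-84176802 for Nanos3, read 5′ to 3′. The Prdm1 entry starts inside the gene span, so it belongs to an internal transcript start and not to the 5′ end of the span. Capitals mark the motif matches described next.
Prdm1: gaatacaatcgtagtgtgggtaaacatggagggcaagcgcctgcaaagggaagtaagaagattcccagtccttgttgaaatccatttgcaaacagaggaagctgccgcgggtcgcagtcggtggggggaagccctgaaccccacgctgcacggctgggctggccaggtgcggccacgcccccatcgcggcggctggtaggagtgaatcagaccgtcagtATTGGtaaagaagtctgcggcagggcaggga
Nanos3: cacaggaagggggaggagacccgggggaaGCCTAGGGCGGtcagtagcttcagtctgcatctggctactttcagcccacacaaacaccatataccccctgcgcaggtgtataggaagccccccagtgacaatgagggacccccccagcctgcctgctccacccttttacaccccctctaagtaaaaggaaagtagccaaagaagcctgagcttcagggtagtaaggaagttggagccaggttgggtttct

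The Prdm1 window had a GC content of 59.2% and 15 CpG dinucleotides, and the Nanos3 window 56.4% and 3, against medians of 52.4% and 6 over 32851 promoters of the same length. Both strands were searched for 7 short motifs. The GC box was written as GGGCGG, the CCAAT box as its own letters and the AP-2 site as GCCNNNGGC. The octamer motif bound by POU factors was written as ATTTGCAT and the site of OTX factors as TAATCC. For SOX factors the letters searched were ACAAAG, and for the TCF and LEF factors of WNT signalling they were CTTTGA. The Prdm1 window held a CCAAT box on the opposite strand, a motif found in 33.8% of all promoters. The Nanos3 window held an AP-2 match, found in 13.7% of all promoters, which overlapped a GC box, found in 32.7%. Of the other 4 motifs neither window held a match. Their shares over all promoters were 1.60% for the octamer, 6.25% for OTX, 16.5% for SOX and 13.8% for TCF/LEF. A match describes the letters only. A merged region with peaks in 18 of the 26 lists covered the Prdm1 window, though most of these peaks overlapped the window only in part. The peak of ES replicate 2, for example, ended at 44458779. No list had a peak over the 250 bases printed for Nanos3.

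The lists differed in length, which moves with every count below. They held 23883 to 31263 peaks in FS1, 11796 to 14147 in FS2, 15505 to 29575 in EpiSC and 8044 to 10961 in ES. In the Rd2 set the 2 Rd2_ES lists held 471 and 2576 peaks, the Rd2_AFX lists 11252 and 10719, and the EpiLC lists 10563, 23608, 7469 and 26045 for replicates 1 to 4. Counts are therefore given for the lists as deposited and at equal list length, for which each first-set list was cut to its 8044 top peaks by −log10 p. The lowest −log10 p kept was then 3.98 to 4.68 in ES, 5.18 to 5.64 in FS2, 7.72 to 8.98 in FS1 and 6.61 to 9.61 in EpiSC. A peak dropped from 1 list can thus be stronger than a peak kept in another. Checked against marker genes at equal list length with 20 kb on each side, all 5 naive markers (Zfp42, Tbx3, Esrrb, Klf4, Nanog) had a peak in ES, with 6 to 7 peaks in sum per library against 0 to 2 in FS and 1 to 3 in EpiSC, and Zfp42 and Tbx3 at 0 in both. The 5 formative markers (Otx2, Fgf5, Pou3f1, Dnmt3b, Tcf15) summed to 0 to 1 peaks in ES, 3 to 6 in FS and 3 to 8 in EpiSC. They thus set ES apart but did not set FS apart from EpiSC, with medians of 3.5 in FS and 7 in EpiSC. The 3 primed markers (T, Foxa2, Eomes) summed to 0 to 1 in ES, 0 to 1 in FS and 0 to 2 in EpiSC, so they did not set EpiSC apart. Markers of primitive endoderm and trophoblast summed to 1 in each ES library and 0 to 4 in FS and EpiSC, with Elf5 at 0 in all 3 cell types. On the lists as deposited the naive sums did not set ES apart, at 6 to 8 in ES, 2 to 12 in FS and 7 to 14 in EpiSC. Zfp42 stayed at 0 in FS but not in EpiSC. The formative sums as deposited were 0 to 1 in ES, 7 to 18 in FS and 9 to 20 in EpiSC. For the primed markers they were 0 to 1, 1 to 7 and 4 to 11. The Rd2_ES lists had a peak at 1 of 5 naive markers only, with Zfp42, Tbx3, Esrrb and Klf4 at 0, so these short lists do not carry the marker pattern of their label. With the EpiLC and Rd2_AFX lists cut to 7469 peaks, the naive sums were 1 to 3 in EpiLC and 2 in each Rd2_AFX library. The formative sums were 2 to 7 in EpiLC and 5 in each Rd2_AFX library, and the primed sums 0 to 1 in both. These markers did not set the 2 groups apart.

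Across the 5 loci together, most regions found in FS or EpiSC were found in both, at shares near or somewhat above those of all regions. On the lists as deposited, 21 of the 41 regions had a peak in at least 1 FS and at least 1 EpiSC library, 4 in FS and not EpiSC, 7 in EpiSC and not FS, and 9 in neither. Of the 32 found in FS or EpiSC these are 65.6%, 12.5% and 21.9%, against 49.98%, 18.1% and 31.9% of the 63473 such regions of the genome. No region at these loci had a peak in every library of either cell type and none of the other. Over all regions of the genome such full separation was rare too, at 0.0158% for FS over EpiSC and 0.0189% for EpiSC over FS. Regions with a peak in all 6 FS and all 9 EpiSC libraries numbered 4 of the 32, against 8.83% of the 63473 regions found in these cell types. When lists had equal length 9 regions were shared, 3 were in FS and not EpiSC, and 3 in EpiSC and not FS. These shares of 60%, 20% and 20% stood beside 60.1%, 20.8% and 19.2% of all regions. Again no region at the 5 loci was fully separated between the cell types (0.0919% and 0.0306% of all regions in the 2 directions). The 5 loci together then held 4 to 6 peaks per FS library (mean 4.83 ± 0.983 SD, n = 6). EpiSC libraries held 4 to 8 (5.78 ± 1.09 SD, n = 9) and ES libraries 6 to 8 (6.67 ± 1.15 SD, n = 3), so the ranges met or overlapped.

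**Figure D1:**
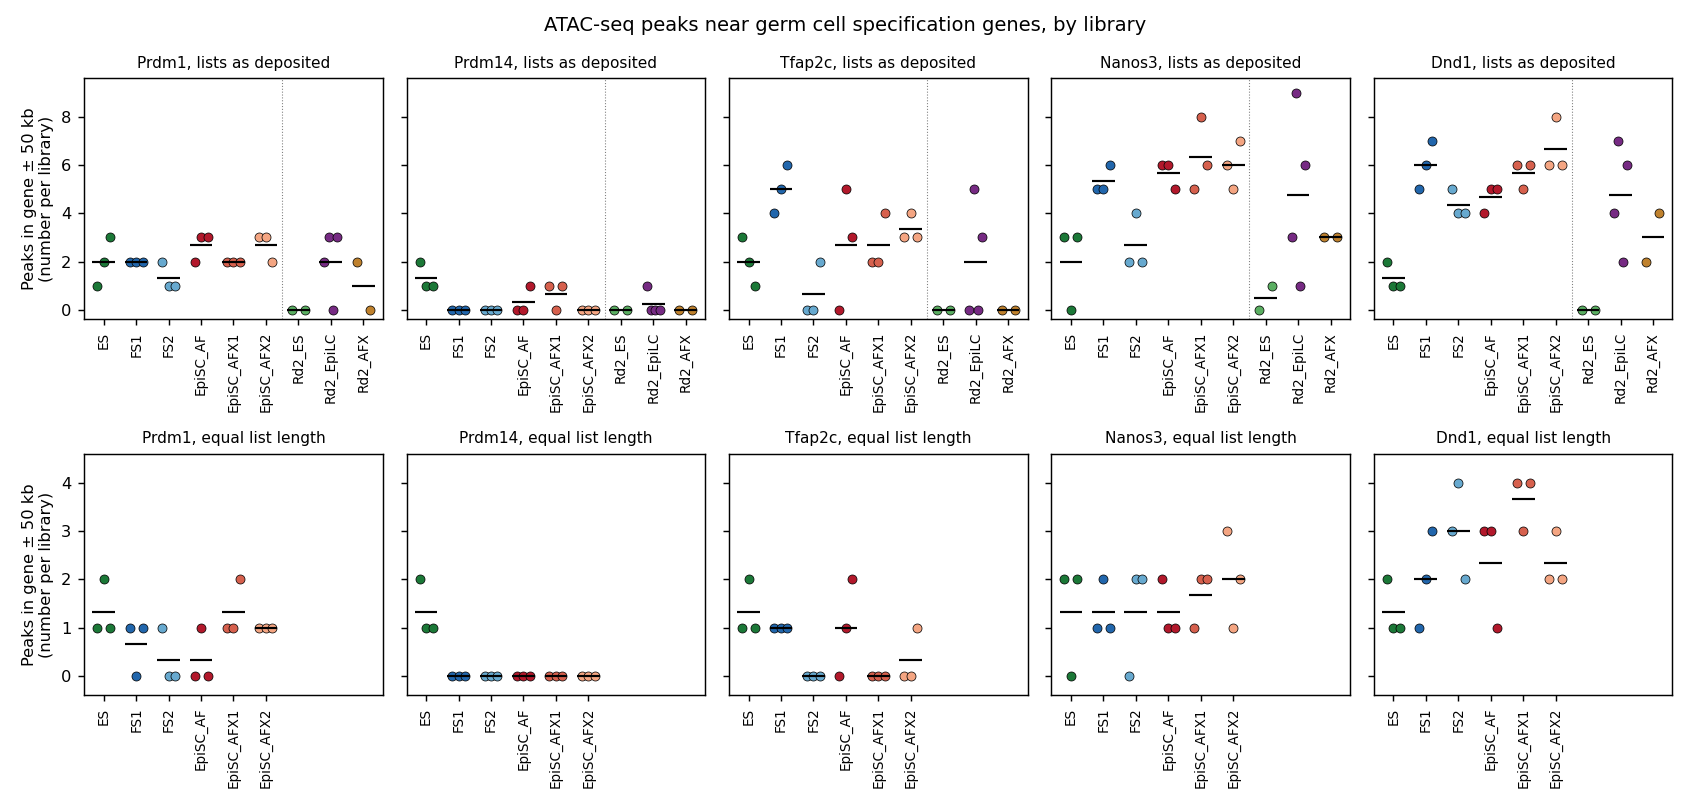
Peaks in each gene's locus (vertical axis, number of peaks) for every library of each group (horizontal axis), on the lists as deposited and at equal list length; points are libraries and horizontal lines group means. Prdm14 is at 0 in all 6 FS libraries, and at equal list length it has peaks in the 3 ES libraries only of the first set.

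Prdm1 (gene ID 12142, chr10:44437174-44528558, minus strand) was the longest of the 5 genes at 91385 bases, with no other protein-coding gene in its locus. As deposited, its locus held 2 peaks in each FS1 library and 2, 1 and 1 in FS2. EpiSC_AF had 2, 3 and 3, EpiSC_AFX1 had 2 in each, EpiSC_AFX2 had 3, 3 and 2, and ES had 1, 2 and 3. FS and EpiSC overlapped at 2 peaks, and no EpiSC library fell below that. The FS mean of 1.67 ± 0.516 (SD, n = 6) lay below the EpiSC mean of 2.44 ± 0.527 (SD, n = 9), a difference of −0.78 with an unadjusted p of 0.0324 in a two-sided exact permutation test over libraries. The exact test did not pass adjustment over the 20442 genes tested (Benjamini-Hochberg adjusted p = 0.865), and 4.89% of genes were lower in FS at that unadjusted level of 0.05. Cut to equal length, FS1 had 1, 0 and 1, FS2 had 1, 0 and 0, EpiSC_AF had 0, 1 and 0, EpiSC_AFX1 had 1, 1 and 2, EpiSC_AFX2 had 1 in each and ES had 1, 2 and 1. The groups overlapped and the difference between FS and EpiSC of −0.39 had an exact permutation p of 0.383 (adjusted p = 0.984).

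Of the 5 Prdm1 regions, 3 were found in at least 3 lists. The internal start region, chr10:44458507-44459160, lies inside the gene span, 21.3 kb from its lower end, and spans the RefSeq start printed above. As deposited it had a peak in all 9 EpiSC libraries, in 2 of 3 FS1, 1 of 3 FS2 and 2 of 3 ES libraries. The 3 of 6 in FS against 9 of 9 in EpiSC gave a two-sided Fisher's exact p of 0.0440 (adjusted p = 1 over 63473 regions), a level that 2.7% of regions reached in the same direction. In FS1 the authors' fold enrichment of this peak was 5.47 in replicate 1 and 3.83 in replicate 2, and in FS2 it was 3.83 in replicate 1. In EpiSC it ranged from 4.22 to 6.08 with a median of 4.90, and in the 2 ES libraries it was 3.61 and 3.30. Folds are the authors' values and serve to place a peak within its own list, where the EpiSC peaks ranked from the 30.5th to the 83.5th percentile by −log10 p and the ES peaks at the 13.2nd and 1.23rd. After cutting to equal length this peak stayed in 1 of 6 FS, 3 of 9 EpiSC and 1 of 3 ES libraries (FS against EpiSC Fisher's exact p = 0.604, adjusted p = 1). In the Rd2 set it was present in 3 of 4 EpiLC and 1 of 2 Rd2_AFX libraries. For scale, 28.9% ± 7.06 (SD, n = 6) of all RefSeq promoters had a peak in FS, 33.21% ± 2.84 (SD, n = 9) in EpiSC and 15.3% ± 1.56 (SD, n = 3) in ES, as deposited.

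The second Prdm1 region, chr10:44529248-44529804, begins 0.69 kb beyond the upper end of the gene span, which is its 5′ end. It was open in all 6 FS and all 9 EpiSC libraries as deposited and in none of the 3 ES libraries. In the Rd2 set it was in 3 of 4 EpiLC, 1 of 2 Rd2_AFX and no Rd2_ES library. Against FS the absence in ES had a Fisher's exact p of 0.0119, the smallest that 3 and 6 libraries allow, with an adjusted p of 0.348, and 2.91% of regions had a peak in every FS and no ES library. The fold ranged from 3.79 to 6.73 in FS and from 4.51 to 6.78 in EpiSC. ES lists were also shorter than all FS lists, and at equal list length 2 of 6 FS, 5 of 9 EpiSC and 0 of 3 ES libraries kept the peak (ES against FS Fisher's exact p = 0.5, adjusted p = 0.881). The part of list length in the difference was not tested further.

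The third, chr10:44391327-44392328, lies 44.8 kb below the gene, where Atg5, an autophagy gene, is the nearest protein-coding gene at 27028 bases. All 3 ES libraries had this peak, at folds of 3.57, 5.01 and 3.86, and no FS library had it. Among EpiSC it appeared as deposited in 2 of 3 EpiSC_AF, 0 of 3 EpiSC_AFX1 and 2 of 3 EpiSC_AFX2 libraries, and in the Rd2 set in 2 of 4 EpiLC libraries. It remained at equal list length in the 3 ES libraries and in no other first-set library. The EpiSC peaks that the cut dropped had folds of 3.85 to 4.54. Their −log10 p was 4.70 to 6.09, against 5.05, 8.44 and 5.52 for the ES peaks that were kept. ES against FS gave a Fisher's exact p of 0.0119 (adjusted p = 0.310) at equal list length, and 2.13% of the 21844 regions tested separated these 2 cell types in that way. As deposited, the distal peak was thus in every ES library and the peak beyond the 5′ end in every FS and EpiSC library.

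**Figure D2:**
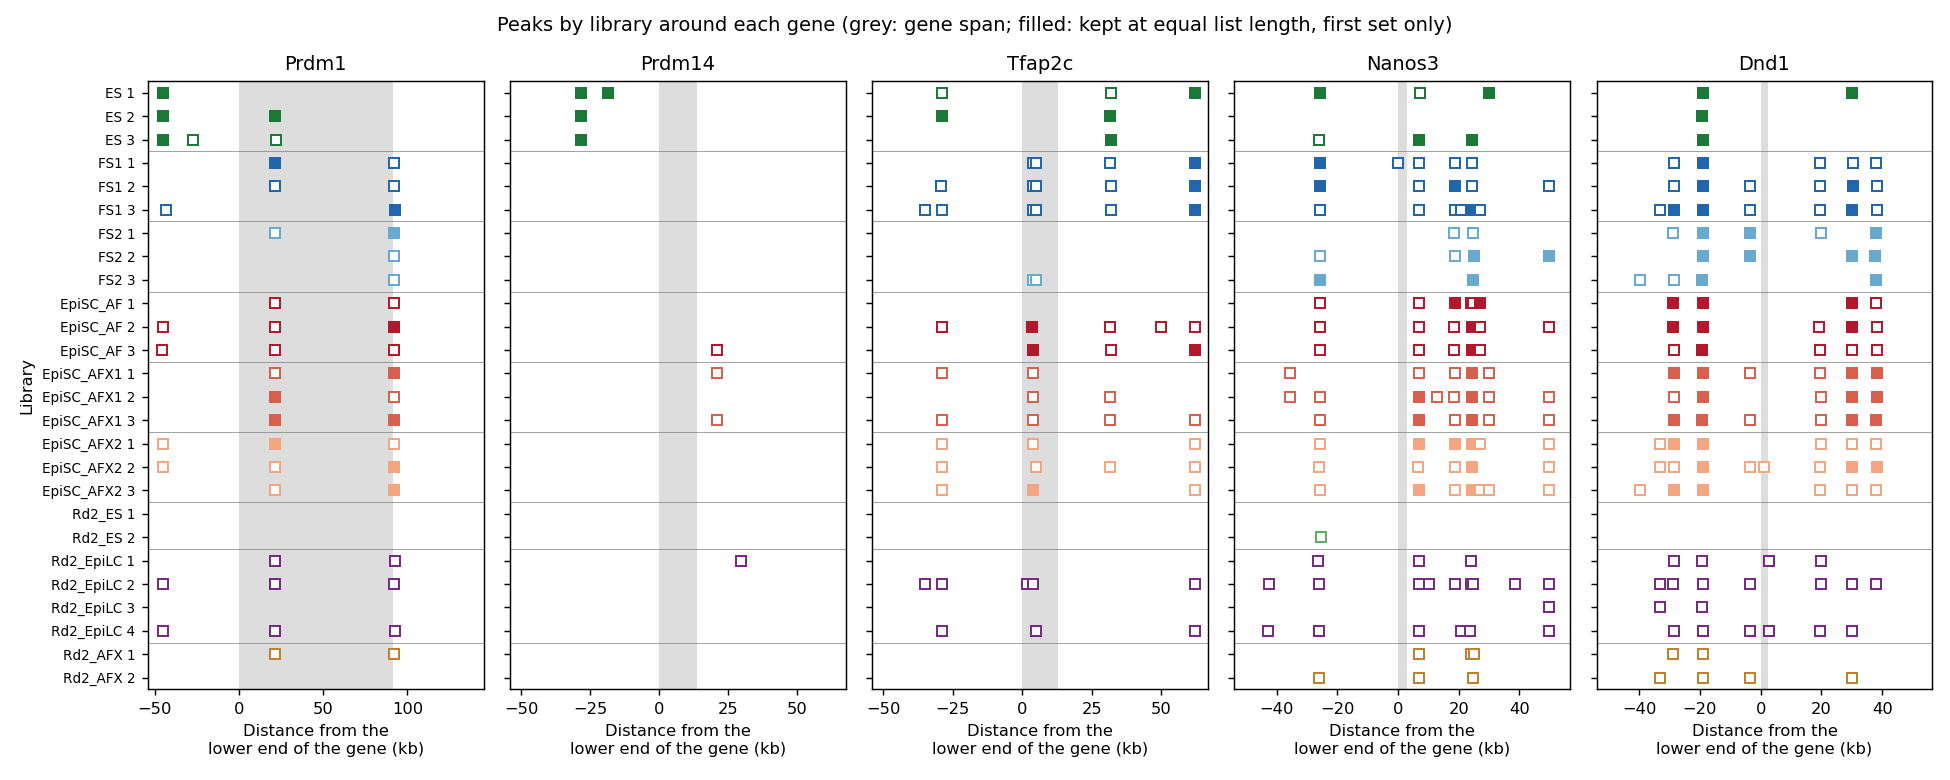
Position of every peak (horizontal axis, distance from the lower end of the gene in kb) in each library (rows) for the 5 loci; grey bands are gene spans, and filled marks are peaks kept at equal list length in the first set. The Prdm1 peak just beyond the upper end of the gene is present in all 15 FS and EpiSC libraries, and the Prdm14 gene span holds no peak in any of the 26 libraries.

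Prdm14 (gene ID 383491, chr1:13113428-13127163) had the fewest peaks of the 5, with 8 in 4 regions over all 26 lists, and its locus also holds the coactivator gene Ncoa2. No library of any group had a peak within the gene span. As deposited, all 6 FS libraries had 0 peaks in the whole locus, which was also the case for 10.6% of protein-coding genes. ES had 2, 1 and 1 peaks, EpiSC_AF had 0, 0 and 1, EpiSC_AFX1 had 1, 0 and 1, EpiSC_AFX2 had 0 in each, EpiLC had 1, 0, 0 and 0, and the Rd2_AFX and Rd2_ES libraries had none. The ES counts did not overlap with FS on either kind of list. In lists of equal length ES kept 2, 1 and 1 peaks and every FS and EpiSC library had 0. The difference of 1.33 peaks between ES and FS had an exact permutation p of 0.0119 (adjusted p = 0.190 over 17765 genes at equal list length, 0.128 as deposited). For scale, 2.12% of genes at equal list length and 0.326% as deposited had every ES library above every FS library. At equal list length, 0.631% of protein-coding genes had a peak in all 3 ES and in no FS or EpiSC library.

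The Prdm14 peak shared by the 3 ES libraries was chr1:13084966-13085349, 28.1 kb below the gene. Its folds were 4.25, 3.92 and 3.69, and it ranked at the 75.5th, 43.4th and 42.9th percentiles of the 3 ES lists. No other library of either set, Rd2_ES included, had a peak there. The 2 Rd2_ES lists were the shortest of all and also lacked peaks at most naive markers. Over the genome at equal list length, 1.49% of 24880 first-set regions were present in every ES library and in none of the other 15. The test between ES and FS gave a Fisher's exact p of 0.0119 and an adjusted p of 0.310. The other region in at least 3 lists, chr1:13134351-13134595, lies 7.19 kb above the gene with Ncoa2 as the nearest protein-coding gene. It had a low-ranking peak in 1 of 3 EpiSC_AF and 2 of 3 EpiSC_AFX1 libraries as deposited, at folds of 3.41, 4.003 and 3.77, and in none at equal list length. The remaining 2 regions were each in a single list.

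Tfap2c (gene ID 21420, chr2:172545678-172558622) had no other protein-coding gene in its locus and, of the 5 loci as deposited, the widest spread between libraries within FS and within EpiSC. FS1 had 4, 5 and 6 peaks as deposited and FS2 had 0, 0 and 2. EpiSC_AF had 0, 5 and 3, EpiSC_AFX1 had 2, 2 and 4, EpiSC_AFX2 had 3, 4 and 3, and ES had 3, 2 and 1. The 2 FS groups did not overlap, and EpiSC libraries lay across the range of both. The mean was 2.83 ± 2.56 (SD, n = 6) for FS and 2.89 ± 1.45 (SD, n = 9) for EpiSC with an exact permutation p of 1, so no difference could be told from these libraries. Every FS2 list was shorter than every FS1 and every EpiSC list, and the part of list length in the gap between FS1 and FS2 was not tested beyond the equal-length values. Lists of equal length gave FS1 1 peak in each, FS2 had 0 in each, EpiSC_AF had 0, 1 and 2, EpiSC_AFX1 had 0 in each, EpiSC_AFX2 had 0, 0 and 1, and ES had 1, 2 and 1. The means of 0.500 in FS and 0.444 in EpiSC again had an exact permutation p of 1. ES exceeded FS by 0.83 peaks (exact permutation p = 0.131, adjusted p = 0.518).

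Within the Tfap2c gene, chr2:172548839-172549690 was in 3 of 3 FS1, 1 of 3 FS2, 7 of 9 EpiSC, 1 of 4 EpiLC and 0 of 3 ES libraries as deposited. Cutting lists to equal length left it in 0 of 6 FS and 3 of 9 EpiSC libraries (Fisher's exact p = 0.229, adjusted p = 0.945). A neighbouring intragenic region, chr2:172550441-172551000, was in 3 of 3 FS1, 1 of 3 FS2, 1 of 9 EpiSC, 1 of 4 EpiLC and 0 of 3 ES libraries and in no first-set list at equal length. ES libraries thus had no peak in either intragenic region and carried their Tfap2c peaks at the 3 flanking regions. These were chr2:172516144-172517071, 28.6 kb below, chr2:172576882-172577758, 18.3 kb above, and chr2:172607813-172608087, 49.2 kb above, with peaks in 2, 3 and 1 of 3 ES libraries. The predicted gene Gm36038 has an end within 1 kb of each of the latter 2.

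The region 49.2 kb above Tfap2c set FS1 apart from FS2. It had folds of 6.14, 5.55 and 7.54 in the 3 FS1 libraries, stayed in all 3 at equal list length and was in no FS2 library on either kind of list. The share of all regions with a peak in every FS1 and no FS2 library was 2.61% at equal list length. It was in 6 of 9 EpiSC libraries as deposited and in 1 of 9 at equal list length, against 3 of 6 in FS (Fisher's exact p = 0.235, adjusted p = 0.945). In the Rd2 set it was present in EpiLC replicates 2 and 4, which had the 2 longest lists, and in no Rd2_AFX library.

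**Figure D3:**
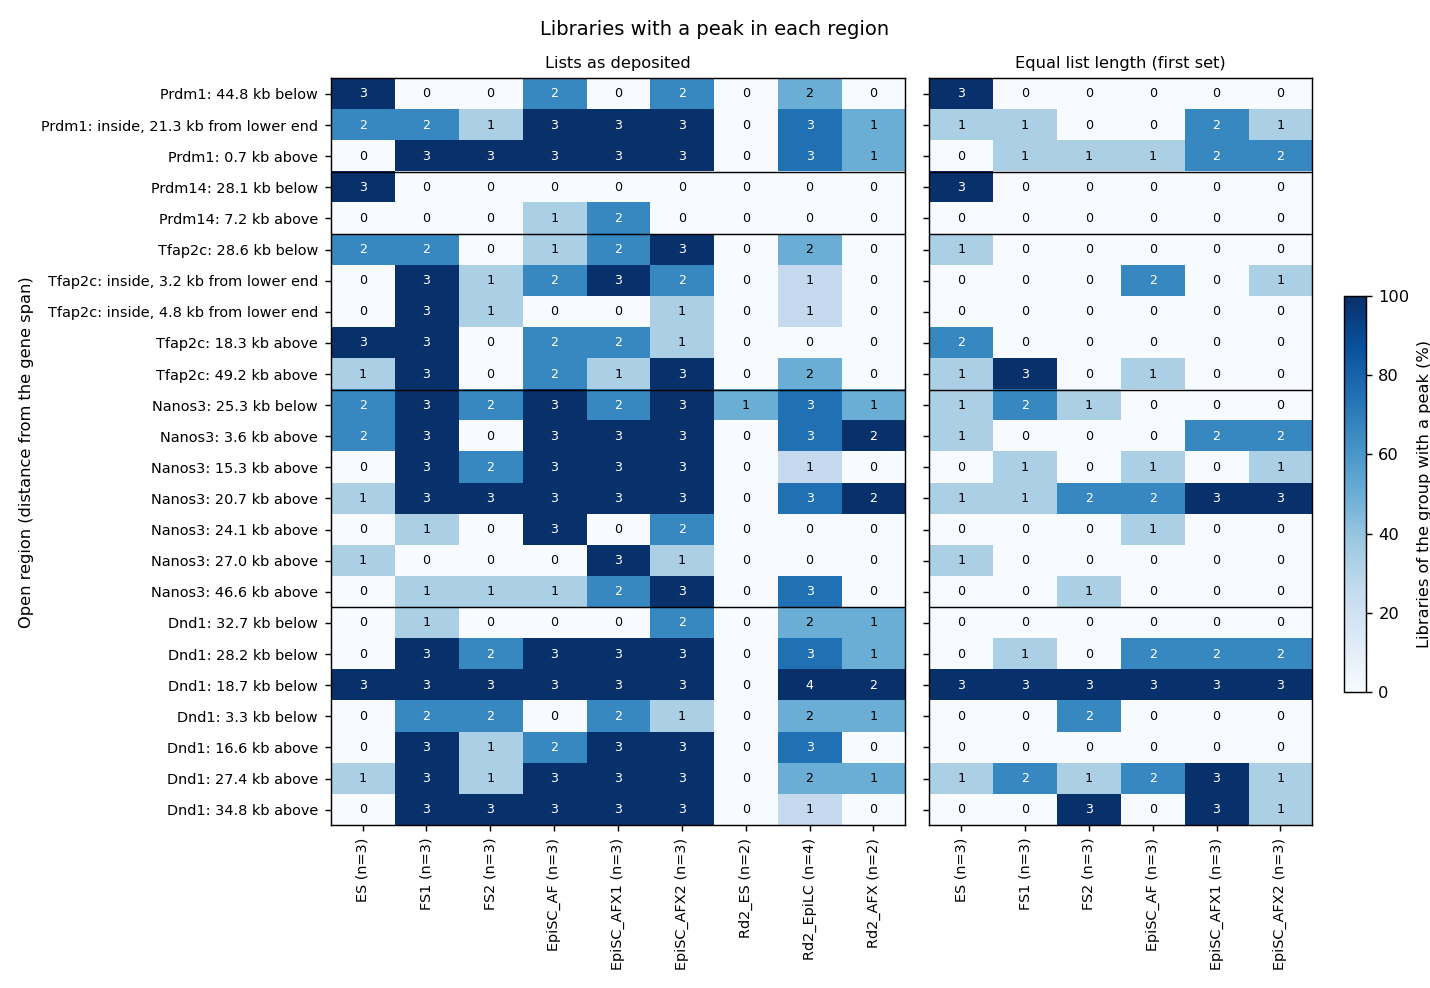
Share of each group's libraries with a peak (colour, percent) in each of the 24 regions found in at least 3 lists (rows, ordered by gene) on the lists as deposited and at equal list length (columns are groups, with the number of libraries). The region at Ndufa2 and Ik in the Dnd1 locus is filled in all first-set groups on both kinds of list, and the Prdm14 region 28.1 kb below the gene is filled in ES alone.

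Nanos3 (gene ID 244551, chr8:84173733-84176552, minus strand) is a short gene among 4 other protein-coding genes (Podnl1, Cc2d1a, 4930432K21Rik and Zswim4), so a peak in its locus need not belong to it. FS1 had 5, 5 and 6 peaks as deposited, FS2 had 2, 4 and 2, EpiSC_AF had 6, 6 and 5, EpiSC_AFX1 had 5, 8 and 6, EpiSC_AFX2 had 6, 5 and 7, and ES had 3, 0 and 3. FS1 overlapped with EpiSC and all 3 FS2 libraries lay below every EpiSC library. The mean of 4 ± 1.67 (SD, n = 6) in FS against 6 ± 1 (SD, n = 9) in EpiSC differed by −2 with an exact permutation p of 0.0140 (adjusted p = 0.865). Over all genes tested the median difference as deposited was −0.28. With equal list length the values were 1, 2 and 1 in FS1, 0, 2 and 2 in FS2, 2, 1 and 1 in EpiSC_AF, 1, 2 and 2 in EpiSC_AFX1, 3, 1 and 2 in EpiSC_AFX2 and 2, 0 and 2 in ES. They overlapped, with a difference between FS and EpiSC of −0.33 (exact permutation p = 0.499, adjusted p = 1). With peaks ranked by fold instead, this difference changed sign to 0.22.

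The gene span itself had a called peak in a single list, chr8:84173483-84173895, at a fold of 3.11. The nearest recurrent region, chr8:84180143-84181009, begins 3.59 kb above the gene, which is upstream on the minus strand, and Nanos3 is its nearest protein-coding gene. It was present as deposited in 3 of 3 FS1, 0 of 3 FS2, 9 of 9 EpiSC, 2 of 3 ES, 3 of 4 EpiLC and 2 of 2 Rd2_AFX libraries. FS against EpiSC gave a Fisher's exact p of 0.0440 as deposited (adjusted p = 1). At equal list length, 0 of 6 FS and 4 of 9 EpiSC libraries kept it (Fisher's exact p = 0.103, adjusted p = 0.945). The folds were 4.26, 4.63 and 4.55 in FS1 and 3.73 to 6.04 in EpiSC.

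Of the other recurrent regions of the Nanos3 locus, chr8:84197267-84198755, 20.7 kb above the gene, was in all 15 FS and EpiSC libraries, 1 of 3 ES, 3 of 4 EpiLC and 2 of 2 Rd2_AFX libraries. Of these, 3 of 6 FS and 8 of 9 EpiSC libraries kept it at equal list length (Fisher's exact p = 0.235, adjusted p = 0.945). The region at chr8:84147363-84148401, at the ends of Cc2d1a and 4930432K21Rik, went the other way at equal list length, with 3 of 6 FS and 0 of 9 EpiSC libraries (Fisher's exact p = 0.0440, adjusted p = 0.895). In that comparison 2.49% of the 19577 regions tested were higher in FS at an unadjusted p under 0.05. As deposited it was in 5 of 6 FS and 8 of 9 EpiSC libraries, at folds of 3.48 to 5.66 in FS and 3.61 to 4.57 in EpiSC. The region chr8:84191828-84192876, 15.3 kb above Nanos3, was in 5 of 6 FS, 9 of 9 EpiSC and 0 of 3 ES libraries as deposited (ES against FS Fisher's exact p = 0.0476, adjusted p = 0.638), and 6.65% of regions were lower in ES at that level. At equal list length it was in 1 of 6 FS, 2 of 9 EpiSC and 0 of 3 ES libraries (ES against FS Fisher's exact p = 1).

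The last 3 recurrent regions lie farther above Nanos3, with Zswim4 as the nearest protein-coding gene. As deposited, chr8:84223138-84223851, 46.6 kb above, was in 2 of 6 FS, 6 of 9 EpiSC, 0 of 3 ES, 3 of 4 EpiLC and 0 of 2 Rd2_AFX libraries. With lists cut to equal length it was in 1 of 6 FS, 0 of 9 EpiSC, 3 of 4 EpiLC and 0 of 2 Rd2_AFX libraries (Fisher's exact p = 0.4 for FS against EpiSC and for EpiLC against Rd2_AFX, adjusted p = 0.945 and 1). The region chr8:84200666-84200909, 24.1 kb above, was in 1 of 6 FS and 5 of 9 EpiSC libraries as deposited, 3 of them EpiSC_AF and 2 EpiSC_AFX2, and in 1 EpiSC_AF library at equal length. The region chr8:84203539-84203886, 27.0 kb above, was in 0 of 6 FS, 4 of 9 EpiSC and 1 of 3 ES libraries as deposited, including all 3 of EpiSC_AFX1, and in 1 ES library alone of the first set at equal length. Neither of these 2 had a peak in the Rd2 set.

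Dnd1 (gene ID 213236, chr18:36763671-36766214) sits among 8 other protein-coding genes, and 9 of its 10 regions lie within 1 kb of the end of some gene. FS1 had 5, 6 and 7 peaks as deposited, FS2 had 5, 4 and 4, EpiSC_AF had 4, 5 and 5, EpiSC_AFX1 had 6, 5 and 6, EpiSC_AFX2 had 6, 8 and 6, and ES had 2, 1 and 1. Every ES library lay below every FS library, and FS and EpiSC overlapped. The means of 1.33 ± 0.577 (SD, n = 3) in ES and 5.17 ± 1.17 (SD, n = 6) in FS differed by −3.83 (exact permutation p = 0.0119, adjusted p = 0.128). The same non-overlap was seen in 17.9% of the 19926 genes tested as deposited. With lists cut to equal length ES had 2, 1 and 1, FS1 had 1, 2 and 3 and FS2 had 3, 4 and 2, which overlap (difference −1.17, exact permutation p = 0.202, adjusted p = 0.666). EpiSC libraries had 1 to 4 peaks with a median of 3 at equal list length, and FS against EpiSC differed by −0.28 (exact permutation p = 0.794, adjusted p = 1).

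The Dnd1 gene span held 1 peak in 1 list, at a fold of 3.17. A second region, chr18:36766215-36766405, which starts on the base after the upper end of Dnd1 and is also within 1 kb of an end of Hars, had a peak in 2 of 4 EpiLC libraries and in no other list. It was singled out after its values were seen. The most constant region of all 5 loci was chr18:36744186-36744976, at the ends of Ndufa2, which encodes a subunit of respiratory complex I, and Ik, a splicing factor gene, 18.7 kb below Dnd1. It was in 24 of 26 lists, all but the 2 Rd2_ES lists, and stayed in all 18 first-set lists at equal length. Its fold was 3.62 to 7.51 in FS, 5.66 to 8.08 in EpiSC and 3.72 to 5.05 in ES. Regions at Tmco6 (chr18:36734856-36735493), at Hars and Hars2 (chr18:36782784-36783786) and at Vaultrc5 (chr18:36801016-36802039) had peaks in 5, 4 and 6 of 6 FS and in 9, 8 and 9 of 9 EpiSC libraries, and in 0 of 3 ES libraries, as deposited. Cut to equal length, the Tmco6 region was in 1 of 6 FS, 6 of 9 EpiSC and 0 of 3 ES libraries (FS against EpiSC Fisher's exact p = 0.119, adjusted p = 0.945), and the Hars and Hars2 region was in no first-set library. For the Vaultrc5 region, ES against FS gave a Fisher's exact p of 0.0119 as deposited (adjusted p = 0.348). At equal list length it was in 3 of 3 FS2, 0 of 3 FS1, 4 of 9 EpiSC and 0 of 3 ES libraries. Its folds were 5.04, 4.93 and 5.69 in FS1, where the cut dropped it. They were 5.17, 4.41 and 4.32 in FS2, so the FS1 peaks were not the weaker ones by fold. Presence in every FS2 and no FS1 library was found for 1.49% of regions at equal list length.

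Of the other Dnd1 regions, chr18:36760098-36760377, at an end of Wdr55 and 3.29 kb below Dnd1, was in 4 of 6 FS, 3 of 9 EpiSC and 0 of 3 ES libraries as deposited. Its equal-length counts were 2 of 6 FS, both FS2, and 0 of 9 EpiSC libraries (Fisher's exact p = 0.143, adjusted p = 0.945). In the Rd2 set it was in 2 of 4 EpiLC and 1 of 2 Rd2_AFX libraries as deposited. The region at Zmat2, chr18:36793659-36794214, was in 4 of 6 FS, 9 of 9 EpiSC and 1 of 3 ES libraries as deposited and in 3 of 6, 6 of 9 and 1 of 3 at equal length. The region chr18:36730412-36731004, nearest to Cd14, was in 1 of 6 FS, 2 of 9 EpiSC, 2 of 4 EpiLC and 1 of 2 Rd2_AFX libraries as deposited and in no first-set library at equal length.

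**Figure D4:**
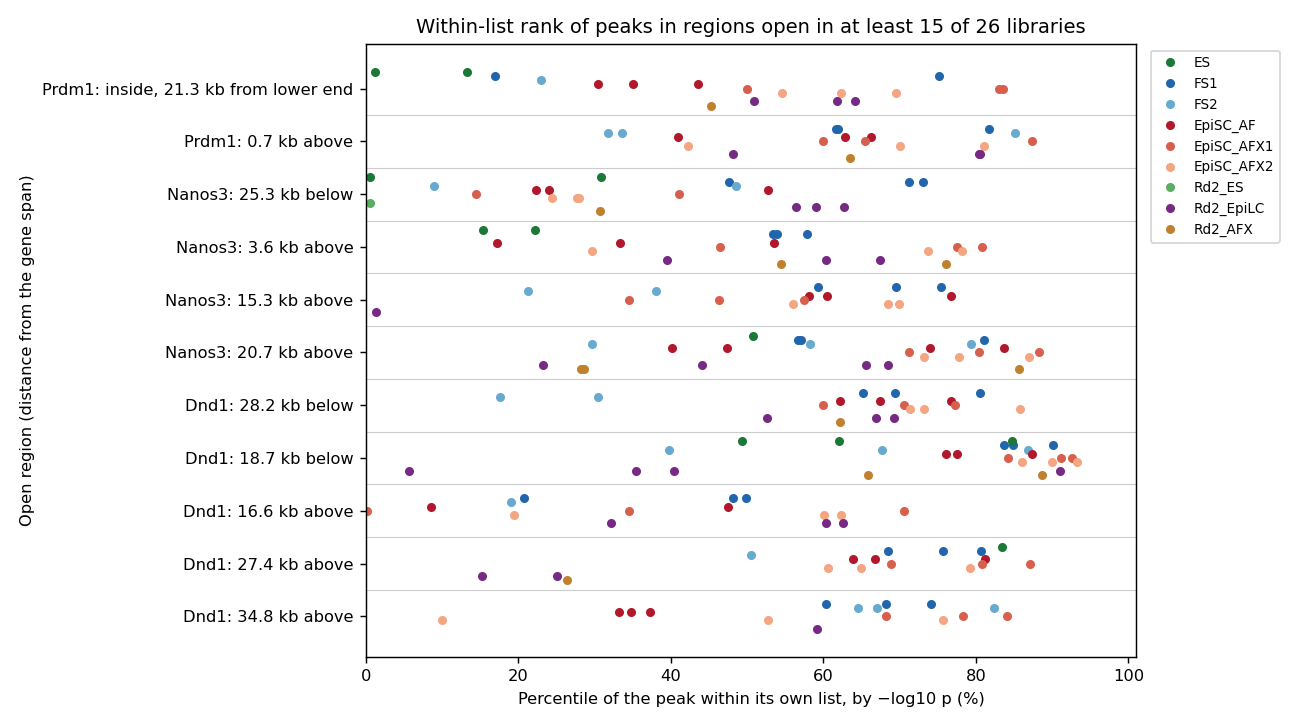
Percentile of each peak within its own list by −log10 p (horizontal axis, percent) for regions with a peak in at least 15 of the 26 libraries (vertical axis), coloured by group. The Ndufa2 and Ik region in the Dnd1 locus has the highest median percentile of these regions at 84.4, and the Prdm1 internal start region has a median of 50.5.

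EpiLC offered the second comparison with EpiSC, within the Rd2 set. For replicates 1 to 4, EpiLC had 2, 3, 0 and 3 peaks at Prdm1, 1, 0, 0 and 0 at Prdm14, 0, 5, 0 and 3 at Tfap2c, 3, 9, 1 and 6 at Nanos3 and 4, 7, 2 and 6 at Dnd1. The 2 Rd2_AFX libraries had 2 and 0, 0 and 0, 0 and 0, 3 and 3, and 2 and 4. EpiLC replicates 2 and 4 had the most peaks at Tfap2c, Nanos3 and Dnd1 and also the longest lists, and replicate 3, with the shortest list, had peaks at Nanos3 and Dnd1 only. EpiLC means exceeded Rd2_AFX at all 5 loci, by 0.25 at Prdm14, 1 at Prdm1, 2 at Tfap2c and 1.75 at Nanos3 and Dnd1, against a median of 0.50 over all genes. No difference passed the exact permutation test (adjusted p = 1 for each), which at 4 against 2 libraries cannot give less than 0.0667, and 0 of 18677 genes reached an unadjusted p under 0.05. With these lists cut to 7469 peaks the differences at Nanos3 and Dnd1 changed sign, to −0.75 and −0.50. As deposited, 10 regions at the 5 loci were in both EpiLC and Rd2_AFX, 17 in EpiLC and not Rd2_AFX and 0 in Rd2_AFX and not EpiLC. Of the 27 these are 37.0%, 63.0% and 0%, against 35.8%, 58.9% and 5.36% of all 34459 regions found in these lists, and EpiLC had 4 libraries to the 2 of Rd2_AFX. In lists cut to 7469 peaks the counts were 7, 7 and 2. Of these 16 regions they are 43.75%, 43.75% and 12.5%, against 47.4%, 37.1% and 15.5% of all 15720 regions found in the cut lists.

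Regions shared by the germ cell competent states and missing from EpiSC would need a peak in FS and EpiLC and in no EpiSC or Rd2_AFX library. On the lists as deposited there were 2 of these, chr2:172510477-172510630 near Tfap2c and chr8:84194412-84194625 near Nanos3. Each rested on 1 FS1 and 1 EpiLC library. They made up 5.26% of the 38 regions at the 5 loci found in any of the 4 cell types, against 1.53% of all such regions. For equal list length the first-set lists were cut to 8044 peaks and these Rd2 lists to 7469. Neither region was then in FS, and 1 region met the pattern, chr8:84223138-84223851 in the Nanos3 locus, with 1 of 6 FS and 3 of 4 EpiLC libraries. That was 4.55% of 22 regions, against 2.34% of all. As deposited the same region was in 2 of 6 FS and 6 of 9 EpiSC libraries, so it did not meet the pattern there. The reverse, a peak in EpiSC and Rd2_AFX and in no FS or EpiLC library, was found for 0 regions on either kind of list, against 0.337% of all regions as deposited and 1.46% at equal length.

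In the 3 comparisons, 0 of the 5 loci and 0 of the 41 regions, of which 15 to 32 had a peak and could be tested in each, passed an adjusted p of 0.05, on either kind of list. The background of calls was also 0, or 0% of all genes and all regions tested. At an unadjusted p under 0.05 in FS against EpiSC, 2 of 5 loci (Prdm1 and Nanos3) were lower in FS as deposited, where 5.51% of genes differed, and none differed at equal list length, where 7.38% of genes did (1270 of 17199). For ES against FS, 1 of 5 loci (Prdm14, higher in ES) reached that level at equal list length, where 11.7% of genes did and 3.41% were higher in ES. As deposited Prdm14 and Dnd1 reached it among 24.3% of genes, Prdm14 with the 0.632% higher in ES and Dnd1 with the 23.6% lower. In Fisher's exact test per region, 1 of 15 tested regions at equal list length and 2 of 32 as deposited had an unadjusted p under 0.05 in FS against EpiSC. The backgrounds were 4.91% and 3.65% of all regions. In ES against FS the counts were 2 of 19 and 6 of 30, with backgrounds of 6.7% and 7.46%. The FS against EpiSC median difference over the 4 loci tested at equal list length was −0.31 peaks, against 0 over all genes.

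Other genes of germline development were counted in the same way, from lists chosen with earlier results of these data known. None passed adjustment in any comparison. Of 11 upstream signal genes and responders, such as the BMP receptor gene Bmpr2 and the signal transducer Smad1, 4 had a higher and 7 a lower mean in FS than EpiSC at equal list length, with a median difference of −0.11 and 0 at an unadjusted p under 0.05. Bmpr2 averaged 1.33 peaks in FS and 1.44 in EpiSC, and Smad1 1.17 and 1.11, and both had a peak in all 18 first-set libraries. On the lists as deposited, Wnt3, which encodes a WNT ligand needed for germ cell competence, averaged 2.33 peaks in FS and 4.44 in EpiSC (exact permutation p = 0.0160, adjusted p = 0.865). T (Brachyury, a mesoderm regulator) averaged 0.833 and 2.67 (exact permutation p = 0.0298, adjusted p = 0.865). At equal list length their means were 1.33 and 1.78, and 0 and 0.111.

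Of 11 early germ cell genes and partners, 3 were higher and 8 lower in FS at equal list length (median −0.28). Fgf8, a growth factor gene, had 0.833 peaks in FS and 1.56 in EpiSC (exact permutation p = 0.0270, adjusted p = 0.606). Cbfa2t2, whose product is a partner of PRDM14, averaged 3.67 in FS and 4.22 in EpiSC, and Prmt5, an arginine methyltransferase gene, 2 and 1.67. Of 10 later germline genes, 6 were higher, 3 lower and 1 equal (median 0.14). Among these Ddx4, an RNA helicase gene of the germline, averaged 2 and 1.89, and the meiotic gene Hormad1 2 in both. Against FS at equal list length, 3 genes of the lists were lower in ES at an unadjusted p under 0.05, as were 8.34% of all genes. ES had no peak near Wnt3 (mean 1.33 in FS, exact permutation p = 0.0119, adjusted p = 0.190) or near Alpl, the alkaline phosphatase gene used to stain germ cells (mean 1.83 in FS, exact permutation p = 0.0238, adjusted p = 0.292). Nanos2, a regulator of male germ cells, averaged 0.333 in ES and 1.83 in FS with the same p values.

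The genes whose peak counts ran most like each member across the 18 first-set libraries at equal list length were found by Pearson's r, as a description in which all genes share the same libraries. For Prdm1 these were Tctn1 (r = 0.74), Dlc1 (0.74) and Trmt9b (0.69). Prdm14, with peaks in ES alone, was most like LOC115488129 (0.97), LOC115488029 (0.96) and 9930111J21Rik1 (0.94). Tfap2c was most like Gm33989 (0.78), Arpc5 (0.77) and B3gnt2 (0.76), Nanos3 like Olfr453 (0.70), Atg14 (0.69) and Pik3c2b (0.69), and Dnd1 like Slc39a13 (0.83), Spi1 (0.83) and Arhgap4 (0.82).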

How the data were processed

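ATAC-seq peak lists of 26 mouse libraries were used, 1 list per library, so peaks were called per sample. Per the submitters' processing notes the authors used Trim Galore, Bowtie, Picard and MACS2 with mm10; their settings, roles and any control are not given in the sources used here. Each deposited peak carries −log10 q and −log10 p values, a score and a fold enrichment (ratio). The deposited score and −log10 q were used as a check and a filter, the −log10 p ranked peaks, and folds describe peaks within a list. No read counts were used, so depth is unknown and no counting interval is given. The first set and the Rd2 set have different shortest peaks (150 and 110 bp), and no test compared them with each other. Peaks of both sets were merged into the same regions. The pattern of FS and EpiLC without EpiSC or Rd2_AFX, and its reverse, combined presence in both sets.

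Peaks overlapping a gene span (RefSeq, GRCm38.p6) with 50 kb on each side by at least 1 bp were counted for every protein-coding gene. Peaks of all lists were merged into regions. Window counts were compared by two-sided exact permutation over libraries and region presence by Fisher's exact test, with Benjamini-Hochberg adjustment over all genes or regions having a peak (threshold 0.05; Python 3.11.15, SciPy 1.17.1). Scripts were tested on simulated data. All 5 genes are named, regions in at least 3 lists are described singly, and the 3 genes most alike are named per member. Alternatives covered list length, ranking, −log10 q of at least 5, windows of 20 and 100 kb, 50% overlap, EpiSC subsets, the replicate block and each library left out. FS1 and FS2 taken singly were added after seeing the data. Members and gene lists were chosen with earlier results of these data known.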

Additional observations from a re-analysis of the deposited data

Results flagged for a closer look

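Among 25 groups of 4, 6 or 9 libraries, 5 held a library set apart from the rest of its group by the gap between its value and the next. The usual rate of about 1 such group in 20 by chance need not hold here, as counts this low fall into few values. Groups in which every library had the same count could not be flagged. At equal list length the highest EpiSC library had 2 peaks at Prdm1 (EpiSC_AFX1 replicate 3), 2 at Tfap2c (EpiSC_AF replicate 3) and 3 at Nanos3 (EpiSC_AFX2 replicate 1). As deposited, EpiSC_AFX2 replicate 2 had 8 peaks at Dnd1 and EpiLC replicate 1 had 1 peak at Prdm14 where the other 3 EpiLC libraries had 0.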

How the results depend on the processing

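In all, 1437 values were recomputed under alternatives. Of these, 50 reversed in sign, and the other 1387 did not and stayed on their side of the threshold. Values of 0 under either setting, or without a peak to test, were counted among the 1387 and have no direction to keep. As deposited, for example, the FS against EpiSC difference at the region starting at 172550441 went from 0 to 55.6. At the region starting at 44391327 it went from 0 to −44.4. No gene or region was called under any alternative (lowest adjusted p 0.128). The reversals below are differences in peaks for loci and in percent of libraries for regions, named by their start; none was past the threshold, and the cause was not tested. For FS against EpiSC, the Tfap2c locus became −0.056 as deposited, −0.17 ranked by fold, −0.28 with −log10 q of at least 5, −0.33 with 20 kb, −0.22 with 100 kb, −0.50 with EpiSC_AF only and −0.44 with FS2 only. Nanos3 became 0.22 ranked by fold, Prdm1 0.17 with EpiSC_AF only, and Dnd1 0.33 with 20 kb, 0.17 with EpiSC_AF only and 0.22 with FS2 only. Among regions, 172607813 became −16.7 as deposited and −11.1 with FS2 only, 84147363 −5.56 and 84223138 −33.33 as deposited, 84191828 5.56 ranked by fold and 11.1 with −log10 q of at least 5 or FS1 only, 36801016 −16.7 with −log10 q of at least 5 or EpiSC_AFX only and −44.4 with FS1 only, 36793659 11.1 with 50% overlap and 44458507 16.7 with EpiSC_AF only. For ES against FS, Tfap2c became −0.83 as deposited and −0.50 with −log10 q of at least 5, Prdm1 −0.50 with −log10 q of at least 5 and −0.17 with 20 kb, 84197267 16.7 ranked by fold or with 50% overlap, and 44458507 −16.7 with −log10 q of at least 5. For EpiLC against Rd2_AFX at equal list length, Nanos3 became −0.75, Dnd1 −0.50, and 44458507 and 84147363 −25; with 50% overlap 84197267 became 25. Leaving out each library in turn gave ranges across 0 for Tfap2c (−0.044 to 0.25), Dnd1 (−0.58 to 0.022), 84191828 (−22.2 to 4.17) and 36801016 (−4.44 to 15.6) in FS against EpiSC, for 44458507 in ES against FS (−16.7 to 33.33), and for 44458507, 44529248, 84147363 and 36734856 in EpiLC against Rd2_AFX (−25 to 75). Some differences that were 0 with all libraries also had ranges across 0. These were the Nanos3 locus in ES against FS (−0.33 to 0.67), and 36730412, 36760098 and 36793659 in EpiLC against Rd2_AFX (−50 to 50). In FS against EpiSC at equal list length, the genes with an unadjusted p under 0.05 numbered 1270, against 472 with EpiSC_AFX only, 544 with EpiSC_AF only, 618 with FS1 only and 2056 with FS2 only (both chosen after seeing the data).

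With the replicate block, 0 genes were called and 1073 had an unadjusted p under 0.05. The deviations of same-numbered libraries correlated at −0.043 to 0.040 over 30 pairs, none over 0.1. Those of differently numbered libraries correlated at −0.050 to 0.042 over 60 pairs. No pairing by number was thus seen in these values, and whether same-numbered libraries were handled together cannot be told from them. Ranking by fold was not run for the Rd2 set, whose main values come from the lists as deposited. Counts of 0 to 9 peaks per locus and unknown depth limit what these lists can separate, and 4 against 2 libraries cannot give a p under 0.0667.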
